A study of Mus musculus with 12 samples.

Results

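Decorin (Dcn), biglycan (Bgn), lumican (Lum), osteoglycin (Ogn), Prelp and asporin (Aspn), which are small leucine-rich proteoglycans, and Sparc, periostin (Postn), tenascin C (Tnc) and fibronectin (Fn1), which are matricellular or adhesive matrix proteins, were followed in mouse quadriceps muscle after treadmill training. The 10 genes were found by their symbol in the gene column of the array files. They had 17 probes, and were compared with the 16554 genes and unnamed features that could be tested. Per the labels the mice were C57BL/6J males aged 13 weeks. Of these, 6 had run regularly on a motorized treadmill for 4 weeks, with muscle taken 3 hours after the last session, and 6 were sedentary controls. No genetic change or drug is given for either group, and no sampling time for the sedentary mice. Training itself and the last session cannot be told apart in this design. Total RNA of each mouse was hybridised to its own one-colour array, and arrays are named by the set and animal numbers of the titles, so that s2m1 is animal 1 of set 2. The titles do not say what the sets are.

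The small leucine-rich proteoglycans are secreted core proteins that bind fibrillar collagen, set the width and spacing of its fibrils and hold growth factors such as transforming growth factor beta in the matrix. Matricellular proteins sit in the same matrix but act mainly on cells, through integrins and syndecans, and several are made in larger amounts where tissue is loaded or repaired. In muscle both groups come largely from fibroblasts and tendon cells between the fibres and at the junctions with tendon, not from the fibres themselves.

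Levels are log2 signals relative to the 75th percentile of the same array, so that 0 is the level of a fairly bright probe. The 75th percentile of the unscaled signal lay between 179 and 230 on the exercised arrays and between 167 and 237 on the sedentary arrays, and 21728 to 25246 probes were well above background on each array. The precision is limited by the 6 arrays per group. Across all genes 601 of 16554 (3.63%) passed an adjusted p of 0.05 in limma, 297 higher and 304 lower in exercised mice, and the median difference was -0.03. All 13 muscle fibre markers were measured and none passed the test, with the smallest p for Myh4, the fast IIB myosin (-0.18, SE 0.078), and myoglobin (Mb, 0.21, SE 0.105). Their summed level, relative to the array percentile, ran from 8919 to 11045 in exercised and from 10250 to 11479 in sedentary muscle. Per the file headers the arrays came from 3 slides. Slide 1 held 1 exercised mouse and 3 sedentary mice, slide 2 had the reverse, and slide 3 had 2 of each; values within slides are given with the results.

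The genes were read by probes of 60 bases, and the stretch of transcript a probe sees differs between genes. The first 30 bases of the probes that stand for the 6 proteoglycans follow, as printed in the array annotation, to show what was measured. Positions are those of the annotation on build mm9.
Dcn, chromosome 10, 96980233 to 96980292, plus strand: aacaccttcagatgtgtctatgtgcgttct
Bgn, chromosome X, 70738554 to 70738613, plus strand: caatcagattcggatgattgagaatgggag
Lum, chromosome 10, 97035210 to 97035269, plus strand: taagcatttgcacggttacttagtgaaact
Ogn, chromosome 13, 49719549 to 49719608, plus strand: cattaaagcatctgtgaactgtaaggccac
Prelp, chromosome 1, 135806934 to 135806993, minus strand: ctgtacatcttatctattctccaaaagacc
Aspn, chromosome 13, 49662479 to 49662538, plus strand: ctcaactcataataaagcttcaagtattca
Dcn and Lum lie on the same chromosome, as do Ogn and Aspn. The probes of Sparc and Fn1 cover an interval longer than the probe itself, so they bridge exons and read spliced RNA, and they are given whole.
Sparc, chromosome 11, 55209449 to 55212106, minus strand: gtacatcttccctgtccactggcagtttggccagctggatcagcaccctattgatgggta
Fn1, chromosome 1, 71637422 to 71639659, minus strand: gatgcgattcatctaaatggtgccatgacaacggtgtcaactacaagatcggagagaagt
The first 30 bases are given for the remaining genes.
Postn, chromosome 3, 54194483 to 54194542, plus strand: gattaaagtagaatccaccaaagaacatca
Tnc, chromosome 4, 63620819 to 63620864, minus strand: cccagagaaaagaaggatttttaccaaagc
Each of these 10 probes was well above background on 12 of 12 arrays, and none was saturated.

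None of the 10 genes passed the test between exercised and sedentary muscle, against 3.63% of all genes. All 10 nevertheless had a higher mean in the exercised group, where 42.1% of all genes did, and their median log2 difference was 0.36. An unadjusted p below 0.05 with a higher exercised mean was found for 3 of the 10 (Prelp, Dcn and Ogn), against 6.39% of all genes. In none of the 10 did every exercised array lie above every sedentary array, which was the case for 1.39% of all genes. The 10 genes vary together between arrays, as described further on, so these counts are not 10 separate observations.

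**Figure D1:**
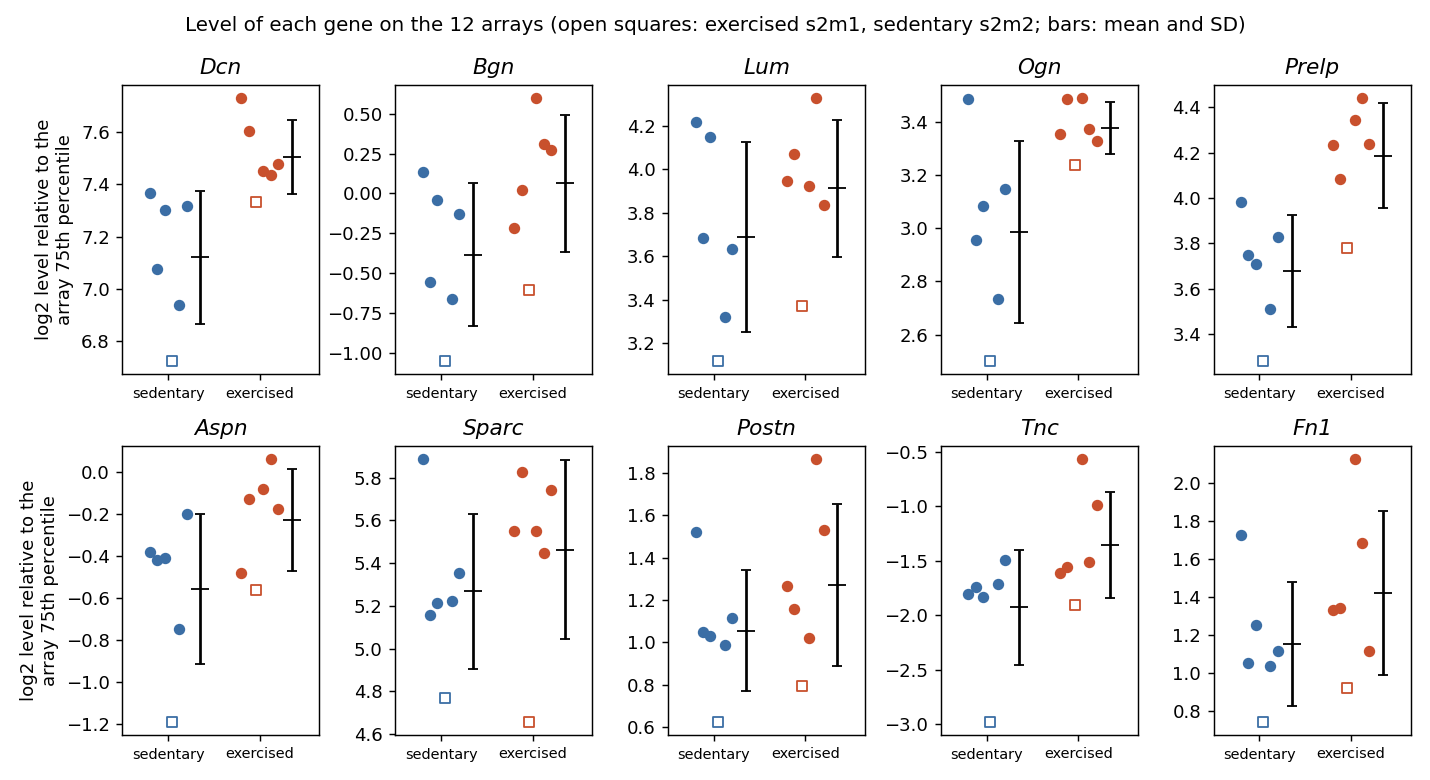
Level of each of the 10 genes on the 12 arrays, as log2 signal relative to the 75th percentile of the array, with sedentary arrays in blue, exercised arrays in red, and the mean and SD beside each group (6 arrays each). Open squares mark exercised s2m1 and sedentary s2m2, each the lowest of its group in all 10 genes.

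Prelp, which binds both collagen and heparan sulfate and is thought to tie basement membranes to the matrix, came closest to the threshold. Its log2 level ran from 3.78 through a median of 4.24 to 4.44 in exercised muscle and from 3.28 through 3.73 to 3.98 in sedentary muscle. In all, 5 of the 6 exercised arrays lay above the highest sedentary array, and exercised s2m1 did not. The difference was 0.51 (SE 0.132), a fold of 1.42 with a 95% interval of 1.17 to 1.74, and its adjusted p in limma was 0.0530. The exact two-sided permutation test over the 924 assignments of arrays gave p = 0.00649, where 0.00216 is the smallest it can give. After adjustment over all genes no gene passed with this test. With that floor no gene can pass unless many genes come close to it, so this outcome says little about Prelp. With slide as a block the difference was 0.49 with an adjusted p of 0.160. Without exercised s2m1 it was 0.59 and passed, with an adjusted p of 0.0237 in limma. Without sedentary s2m2 it was 0.43 and did not pass, with an adjusted p of 0.0942.

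Decorin, the proteoglycan that binds collagen I fibrils and transforming growth factor beta, showed a similar picture. Its level ran from 7.33 through a median of 7.46 to 7.73 in exercised muscle and from 6.73 through 7.19 to 7.37 in sedentary muscle. Here too 5 of the 6 exercised arrays lay above every sedentary array. The difference was 0.38 (SE 0.115), a fold of 1.30 (95% interval of the log2 difference 0.13 to 0.63), with an adjusted p of 0.0958 in limma and p = 0.00433 in the exact permutation test. With slide as a block its adjusted p was 0.144.

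Osteoglycin, a keratan sulfate carrier also known as mimecan, was the least variable of the genes in exercised muscle, with an SD of 0.097 on the log2 scale against 0.342 in sedentary muscle. The equality of these spreads was not tested. Its level ran from 3.24 through a median of 3.36 to 3.49 in exercised muscle and from 2.50 through 3.02 to 3.49 in sedentary muscle. All sedentary arrays but s1m1 lay below the lowest exercised array. The difference was 0.39 (SE 0.137), a fold of 1.31 (1.07 to 1.61), with an adjusted p of 0.158 in limma and p = 0.0216 in the exact permutation test. Without sedentary s1m1 it was 0.49, with an adjusted p of 0.0402 in limma. Without sedentary s2m2 it was 0.30, with an adjusted p of 0.254.

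Biglycan, the close relative of decorin that also signals through Toll-like receptors, ran from -0.61 through 0.15 to 0.60 in exercised and from -1.05 through -0.34 to 0.13 in sedentary muscle, so the groups overlapped broadly. Its difference was 0.45 (SE 0.231), a fold of 1.36 (0.963 to 1.93), with an adjusted p of 0.375. Asporin, which has an aspartate run in place of the usual sugar chain sites, ran from -0.56 through -0.15 to 0.06 in exercised and from -1.19 through -0.42 to -0.20 in sedentary muscle. Its difference was 0.33 (SE 0.163), a fold of 1.26 (0.983 to 1.61), with an adjusted p of 0.349, and 4 of 6 exercised arrays lay above every sedentary array. Lumican, the collagen-spacing proteoglycan best known from the cornea, ran from 3.37 through 3.93 to 4.33 in exercised and from 3.12 through 3.66 to 4.22 in sedentary muscle. Its difference was 0.22 (SE 0.202), a fold of 1.17 (0.862 to 1.58), with an adjusted p of 0.656. Lumican depended on single arrays: the difference was 0.11 without sedentary s2m2 and 0.14 without exercised s2m4. The difference of asporin was 0.20 without sedentary s2m2.

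Tenascin C, a large glycoprotein of tendon and of the muscle-tendon junction that responds to load, had the largest difference of the 10 genes and also the widest interval. Its level ran from -1.90 through a median of -1.54 to -0.56 in exercised muscle and from -2.98 through -1.78 to -1.49 in sedentary muscle. Exercised s2m3 and s2m5 lay above every sedentary array, and sedentary s2m2 lay far below the other sedentary arrays. The difference was 0.57 (SE 0.266), a fold of 1.49 (0.997 to 2.22), with an adjusted p of 0.313. Without sedentary s2m2 it was 0.36 with an adjusted p of 0.480.

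Fibronectin, the fibril-forming ligand of many integrins, ran from 0.92 through 1.34 to 2.13 in exercised and from 0.74 through 1.08 to 1.72 in sedentary muscle. Its difference was 0.27 (SE 0.202), a fold of 1.20 (0.888 to 1.63), with an adjusted p of 0.585, and leaving out exercised s2m3 took it to 0.12. Periostin, which helps collagen to be cross-linked, ran from 0.79 through 1.21 to 1.87 in exercised and from 0.63 through 1.04 to 1.52 in sedentary muscle. Its difference was 0.22 (SE 0.180), a fold of 1.16 (0.887 to 1.52), with an adjusted p of 0.624, and it was 0.10 without exercised s2m4 and 0.13 without sedentary s2m2. Sparc, a collagen-binding protein needed for normal fibril assembly, had the smallest difference. It ran from 4.66 through 5.55 to 5.83 in exercised and from 4.77 through 5.22 to 5.89 in sedentary muscle, so both the lowest exercised and the highest sedentary array lay outside the other group's range. Its difference was 0.20 (SE 0.207), a fold of 1.14 (0.839 to 1.56), with an adjusted p of 0.718. It was 0.36 without exercised s2m1, 0.32 without sedentary s1m1, 0.12 without exercised s1m5 and 0.10 without sedentary s2m2.

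**Figure D2:**
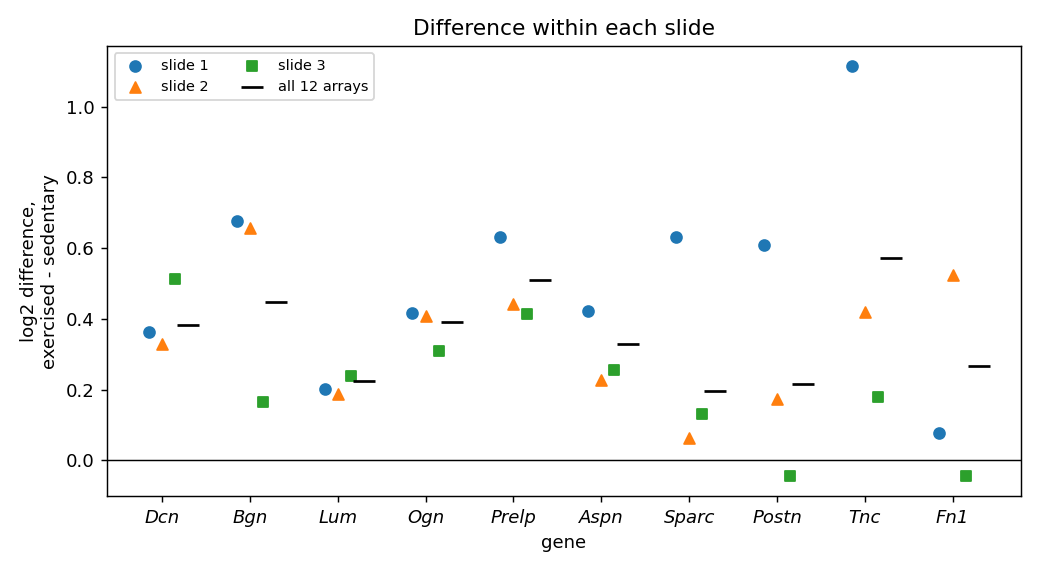
Difference in log2 level between exercised and sedentary arrays within each of the 3 slides (symbols) and over all 12 arrays (black bars), for each of the 10 genes. Postn and Fn1 lie at -0.04 on slide 3, and the other genes lie above 0 on all 3 slides.

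The slides gave the same direction for 8 of the 10 genes. For Prelp the difference was 0.63 on slide 1, 0.44 on slide 2 and 0.41 on slide 3, and for decorin it was 0.36, 0.33 and 0.51. Osteoglycin gave 0.42, 0.41 and 0.31, and lumican 0.20, 0.19 and 0.24. Tenascin C gave 1.11 on slide 1, where the lowest array sedentary s2m2 lies, but 0.42 on slide 2 and 0.18 on slide 3. Sparc gave 0.63, 0.06 and 0.13, periostin 0.61, 0.17 and -0.04, and fibronectin 0.08, 0.52 and -0.04. Biglycan gave 0.68, 0.66 and 0.16, and asporin 0.42, 0.23 and 0.26. Slides 1 and 2 each have a single array of one group, so these are values with no spread in that group. Whether the response differed between the title sets was tested with an interaction term, which passed in none of the 16554 genes in limma and reached an unadjusted p below 0.05 in 1446 of them; the exact permutation test was not run for it. The smallest adjusted p of that term among the 10 genes was 0.646. The sets are small: exercised arrays number 2 and 4 and sedentary arrays 3 and 3 in sets 1 and 2. Both exercised arrays of set 1 are on slide 3, and exercised s2m1 and sedentary s2m2 are both in set 2. The differences by set that follow have no SE. Lumican and fibronectin differed by -0.0089 and -0.0063 in set 1 and by 0.51 and 0.50 in set 2. The values in sets 1 and 2 were 0.05 and 0.76 for biglycan, 0.01 and 0.39 for periostin, 0.10 and 0.52 for asporin, and 0.21 and 0.82 for tenascin C. They were 0.42 and 0.43 for decorin, 0.24 and 0.56 for osteoglycin, 0.35 and 0.66 for Prelp, and 0.27 and 0.23 for Sparc.

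Within each group the same arrays were high or low in most of the 10 genes. Exercised s2m1 was the lowest exercised array in all 10 genes, and sedentary s2m2 was the lowest sedentary array in all 10. Sedentary s2m2 was the lowest of all 12 arrays in 9 genes, and exercised s2m1 in the remaining one, Sparc. At the upper end, sedentary s1m1 was the highest sedentary array in 8 genes, and exercised s2m3 and s2m4 were the highest exercised arrays in 4 each. With both low arrays left out, all 10 differences were still above 0, their median was 0.30, and 1 gene (Prelp, 0.51, adjusted p of 0.0271) passed.

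**Figure D3:**
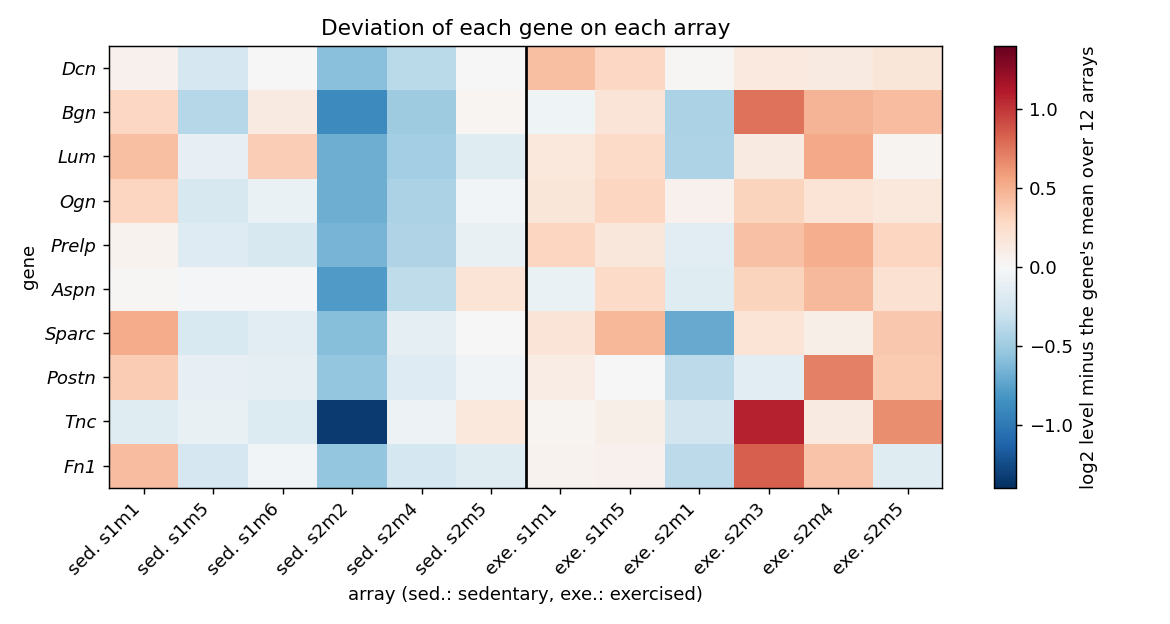
Log2 level of each of the 10 genes on each array minus the mean of the gene over the 12 arrays, with sedentary arrays left of the line and exercised arrays right of it. Sedentary s2m2 is below the mean in all 10 genes, and exercised s2m1 in 8 of the 10.

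With the group means removed, all 45 pairs of the 10 genes correlated positively over the 12 arrays, with Pearson's r from 0.35 to 0.88 and a median of 0.71. The median was 0.77 with slide removed as well, 0.62 within the exercised and 0.86 within the sedentary arrays. The median r of the 10 genes with all 12032 candidate genes was -0.04. The pair most alike was biglycan with Prelp (0.88), followed by biglycan with asporin (0.85) and decorin with osteoglycin (0.85). The least alike was periostin with tenascin C (0.35). The common pattern rests in part on the low arrays: without exercised s2m1 and sedentary s2m2 the median r was 0.36, and 4 pairs, all with tenascin C, turned negative: lumican (-0.36), periostin (-0.33), decorin (-0.28) and Sparc (-0.07). All points share the arrays and their scaling, so these are descriptions and carry no test.

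**Figure D4:**
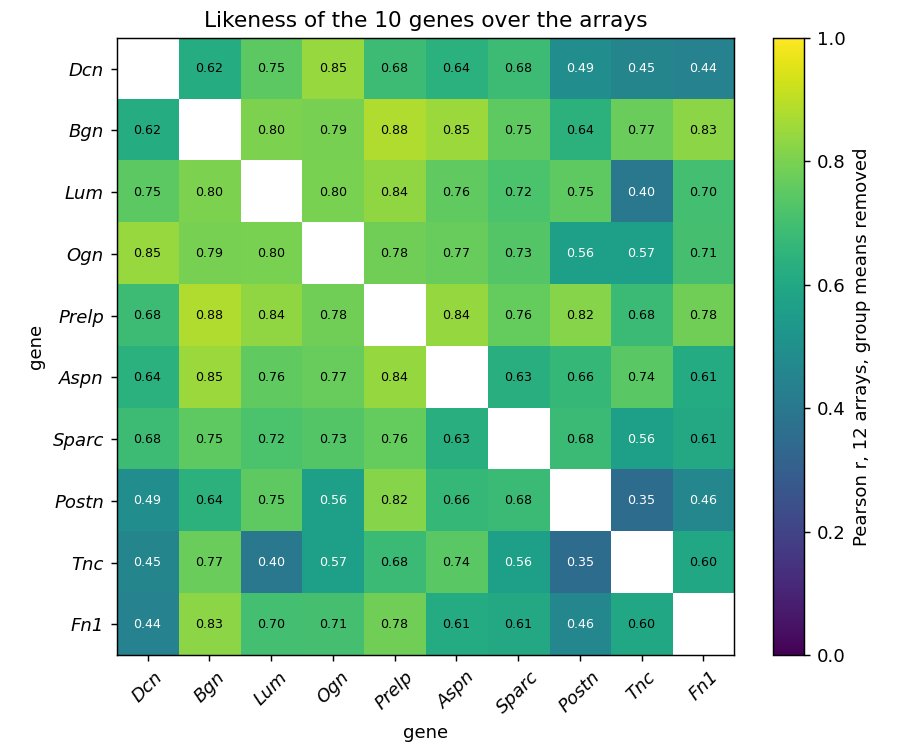
Pearson's r between each pair of the 10 genes over the 12 arrays after removing the group means. Values run from 0.35 (Postn with Tnc) to 0.88 (Bgn with Prelp), and none is below 0.

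Outside the 10 genes, the 3 genes whose levels followed each of them most closely over the 12 arrays were of mixed kinds. Prelp was most like Col1a2, a chain of collagen I (r = 0.95), Serpinf1 (r = 0.94) and Pkd2 (r = 0.93). Biglycan was most like Smim3 (0.96), the matricellular gene Thbs2 (0.95) and Fam114a1 (0.93). Tenascin C was most like Thbs1 (0.94), Col13a1 (0.94) and Fmod (0.93). Fibronectin was most like Mxra8 (0.94), Armcx2 (0.93) and B3gnt9 (0.93), and Sparc was most like Lxn (0.96), the basement membrane collagen Col15a1 (0.95) and Rcn1 (0.94). Osteoglycin was most like Olfml1 (0.95), the collagen receptor Ddr2 (0.93) and Rgs10 (0.91). Lumican was most like Rnase4 (0.96), Gpm6b (0.95) and Slc16a6 (0.94), and decorin was most like Dkk2 (0.91), the metalloproteinase inhibitor Timp2 (0.88) and Cxcl14 (0.88). Asporin was most like Pkd2 (0.94), Plau (0.92) and Arl5a (0.92), and periostin was most like Cmtm7 (0.94), Cmtm8 (0.92) and Syt7 (0.92). For these best matches among 12032 genes a high r is built in by the choice, and no test is given.

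Markers of the cells that make these genes were read on the same arrays, since in whole muscle fewer cells of a type and less RNA per cell cannot be told apart. None of the 12 fibroblast markers passed the test, 7 were above 0 and their median difference was 0.04, and the smallest p were those of Lsp1 (-0.29, SE 0.145) and Gsn (0.12, SE 0.137). Their summed level ran from 358 to 474 in exercised and from 311 to 521 in sedentary muscle. Most of that sum was the signal of Gsn alone (mean log2 level 8.53 in exercised and 8.41 in sedentary muscle). None of the 11 tendon cell markers passed either, but 9 were above 0 with a median of 0.73, and 5 of the 11 are proteoglycan or matricellular genes counted again further on. Without exercised s2m1 and sedentary s2m2, 2 of the 11 passed as higher in exercised muscle. With quantile scaling of all arrays 1 passed as lower. The summed level of the 11 ran from 70.2 on exercised s2m1 to 176 on exercised s2m3, and from 35.7 on sedentary s2m2 to 95.2 in sedentary muscle. The mean deviation of the tendon markers was -0.45 on exercised s2m1 and -1.23 on sedentary s2m2, the lowest array of each group, as for the 10 genes. That of the fibroblast markers was -0.22, also the lowest of the exercised arrays, and -0.09, where sedentary s2m4 was lower (-0.25). Exercised s2m1 and sedentary s2m2 were also the lowest of their groups for the endothelial (-0.38 and -0.10) and satellite cell markers (-0.26 and -0.40). Being low on these arrays was thus not particular to the tendon markers. The smallest p among the tendon markers was that of Tppp3, which marks tendon sheath cells and was lower in exercised muscle (-0.49, SE 0.126, adjusted p of 0.0527), followed by Fmod. The tendon markers Tnmd, a membrane protein of mature tendon cells, and Scx, a tendon transcription factor, differed by 1.11 (SE 0.385) and 0.04 (SE 0.149), and neither passed. Egr1, the other tendon marker that was lower, had the largest difference of the 11 in size (-1.36, SE 0.451, adjusted p of 0.136 in limma). The part of tendon tissue in the differences of the 10 genes was not tested.

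Over the 12 arrays, with group means removed, the 10 genes were set against the mean of the tendon markers and the mean of the fibroblast markers, which gave 20 relations. The permutation p below treat the 12 arrays as exchangeable. Both sides of each relation share the arrays and their scaling, and the 10 genes vary together. A low p here therefore does not tie a gene to a cell type. Tenascin C followed the tendon markers most closely (r = 0.95, rho = 0.86, permutation p = 3e-05 for r and 0.00071 for rho, adjusted p = 6e-04 for r over the 20 relations), and without the 2 farthest arrays r was 0.86. Biglycan (r = 0.79), Prelp (0.80), asporin (0.75), fibronectin (0.73) and Sparc (0.66) also passed the adjusted permutation test with the tendon markers by r but not by rank. Their rho was 0.64, 0.71, 0.51, 0.50 and 0.43 in the same order, with adjusted permutation p of 0.111, 0.0602, 0.207, 0.207 and 0.262. Without the same 2 arrays, sedentary s2m2 and exercised s2m1, r was 0.47 for biglycan, 0.36 for Prelp, 0.21 for asporin, 0.58 for fibronectin and -0.0048 for Sparc, so for Sparc, asporin and Prelp much of the relation rests on those arrays. Decorin (r = 0.77, rho = 0.85, adjusted permutation p = 0.0174 for r) and lumican (r = 0.76, rho = 0.77, adjusted permutation p = 0.0179 for r) instead passed with the fibroblast markers, and r was 0.64 and 0.76 without the 2 arrays farthest out, sedentary s1m1 and exercised s1m1. Decorin had an r of 0.47 with the tendon markers, which became -0.38 without their 2 farthest arrays. Osteoglycin (0.64) and Sparc (0.66) passed with the fibroblast markers by r as well, but not by rank (rho = 0.55 and 0.56, adjusted permutation p = 0.175 for both). Tenascin C had an r of 0.01 with them. The median r over the 10 genes was 0.70 for the tendon and 0.49 for the fibroblast markers, and 0.73 and 0.54 with slide removed as well. Without the 2 farthest arrays of each marker list the order turned, with medians of 0.18 for the tendon and 0.47 for the fibroblast markers. The difference between the 2 sets of relations was not tested.

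Other small leucine-rich proteoglycans gave a similar picture. Of the 11 listed, 8 were measured, none passed the test, 7 were above 0 and their median difference was 0.59. Fibromodulin (Fmod), which shares collagen binding sites with lumican, differed by 0.92 (SE 0.296, adjusted p of 0.123). Keratocan (Kera) differed by 0.91 (SE 0.317, adjusted p of 0.153), and chondroadherin (Chad), a cartilage and tendon protein, by 1.05 (SE 0.457, adjusted p of 0.275). Osteomodulin (Omd) differed by 0.78 (SE 0.301) and Ecm2 by 0.40 (SE 0.171). Epyc, Optc and Podnl1 were not above background on enough arrays.

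**Figure D5:**
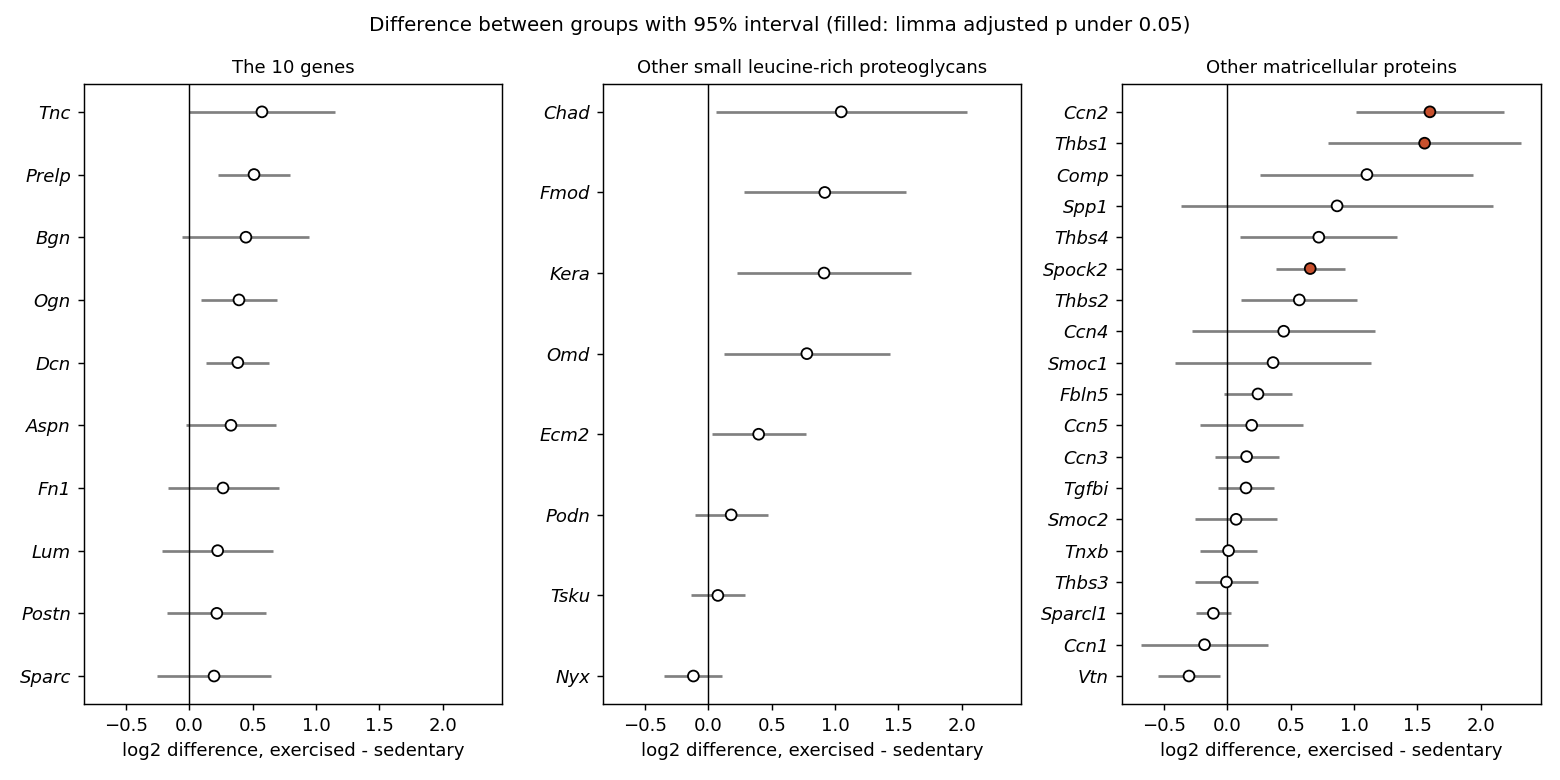
Difference in log2 level between exercised and sedentary muscle with its 95% interval for the 10 genes, the other small leucine-rich proteoglycans and the other matricellular proteins, filled where the adjusted p in limma is below 0.05. Ccn2, Thbs1 and Spock2 are the filled points.

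Among 19 other matricellular genes measured of 23, 3 rose and none fell, 15 were above 0 and the median was 0.24. Ccn2 (connective tissue growth factor), a target of mechanical and transforming growth factor beta signalling, rose 3.03-fold. Its log2 level ran from 3.47 to 5.20 in exercised and from 2.49 to 3.21 in sedentary muscle, with no overlap, and the difference was 1.60 (SE 0.268, adjusted p of 0.00585 in limma). Thbs1 (thrombospondin 1), which activates latent transforming growth factor beta, rose by 1.56 on the log2 scale (SE 0.353, adjusted p of 0.0288). Spock2 (testican 2), a proteoglycan with a Sparc-like domain, rose by 0.65 (SE 0.126, adjusted p of 0.0128). On slides 1, 2 and 3 the difference was 2.17, 1.43 and 1.24 for Ccn2, 2.17, 1.45 and 0.94 for Thbs1, and 0.53, 0.72 and 0.81 for Spock2. With slide as a block Ccn2 (adjusted p of 0.0157) and Spock2 (0.0278) still passed, and Thbs1 (0.116) did not. Without exercised s2m1 and sedentary s2m2 all 3 passed, with adjusted p of 0.0181, 0.0367 and 0.0409 for Ccn2, Spock2 and Thbs1. In that setting 4 of the 19 genes passed as higher, these 3 among them. Ccn1, the close relative of Ccn2, differed by -0.18 (SE 0.232, adjusted p of 0.777).

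Of 23 receptors and co-receptors of the 10 proteins, 3 rose, 1 fell and 19 did not pass. Tlr4, through which biglycan and tenascin C signal, rose by 0.68 (SE 0.130, adjusted p of 0.0122), while Tlr2, the other Toll-like receptor of biglycan, fell by 0.47 (SE 0.112, adjusted p of 0.0374). Sdc4 (syndecan 4), a co-receptor for fibronectin, rose by 0.42 (SE 0.086, adjusted p of 0.0169), and Egfr, which binds decorin, rose by 0.43 (fold 1.34, adjusted p of 0.0354). In each of the 4 genes the groups did not overlap. The integrin chains Itgav and Itgb1 differed by 0.14 (SE 0.098) and -0.01 (SE 0.092). With slide as a block, Sdc4 still passed with an adjusted p of 0.0179, and Tlr4 (0.0521), Egfr (0.0988) and Tlr2 (0.0751) did not. Without exercised s2m1 and sedentary s2m2, the differences were 0.68 for Tlr4, 0.41 for Sdc4, 0.38 for Egfr and -0.46 for Tlr2, and none passed. On slides 1, 2 and 3 they were 0.56, 0.70 and 0.70 for Tlr4, 0.41, 0.46 and 0.33 for Sdc4, 0.34, 0.40 and 0.43 for Egfr, and -0.59, -0.35 and -0.57 for Tlr2.

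Of 16 genes of the transforming growth factor beta system, 1 rose and 8 were above 0. Ltbp2, a fibre-associated relative of the latency proteins, rose by 0.74 (SE 0.181, adjusted p of 0.0423). It did not pass with slide as a block (0.70, adjusted p of 0.0553) or without both low arrays (0.71, adjusted p of 0.146), and it was 0.85, 0.73 and 0.56 on slides 1, 2 and 3. Tgfb1 and Tgfbr1 differed by -0.03 (SE 0.106) and 0.03 (SE 0.064). None of the 9 collagens that partner these proteins passed, 5 were above 0 and their median was 0.03. Col12a1, of tendon and fascia, differed by 0.76 (SE 0.314, adjusted p of 0.243) and Col1a2 by 0.51 (SE 0.247, adjusted p of 0.337). None of 18 genes that build or trim the sugar chains passed, and 10 were above 0. The lowest p was that of Xylt2, which starts the chain on the core protein and differed by -0.42 (SE 0.122, adjusted p of 0.0817), then that of Chst14, a dermatan sulfate sulfotransferase (-0.26, SE 0.092, adjusted p of 0.161).

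Markers of other cells in the tissue moved in both directions. Among 7 endothelial markers 3 fell (Kdr by 0.77, Egfl7 by 0.57 and Cldn5 by 0.87). The summed level of the 7 ran from 22.7 to 30.1 in exercised and from 32.2 to 43.7 in sedentary muscle. Egfl7 was the brightest of the 7 (mean log2 level 3.41 in exercised and 3.99 in sedentary muscle) and so weighed most in that sum. None of the 7 was above 0, but Pecam1 and Tie1 differed by only -0.02 (SE 0.106) and -0.06 (SE 0.083). Of 8 smooth muscle and pericyte markers, Cnn1 (0.91) and Myh11 (0.46) rose and Kcnj8 fell by 0.63. The summed level of the 8 ran from 710 to 826 in exercised and from 702 to 848 in sedentary muscle. Nearly all of that sum was the signal of Acta2 alone (mean log2 level 9.46 in exercised and 9.53 in sedentary muscle). None of the 8 macrophage (median 0.07), 6 white adipocyte (0.39), 7 Schwann cell and 4 satellite cell (-0.16) markers passed. Without exercised s2m1 and sedentary s2m2, 1 Schwann cell marker passed as higher in exercised muscle. All 7 Schwann cell markers were above 0, and their summed level ran from 16.6 to 23.8 in exercised and from 16.5 to 18.8 in sedentary muscle. Most of that sum was the signal of Pmp22 (mean log2 level 3.97 in exercised and 3.81 in sedentary muscle). The smallest p were those of Cd163 (0.26) and Mrc1 (-0.18) for macrophages and of Cidec (0.64) and Retn (0.66) for adipocytes. Among the Schwann cell markers the smallest p was that of Mbp, a myelin protein (0.47), and for satellite cells they were those of Chodl (0.47) and Pax7 (-0.34). The part of these cells in the differences of the 10 genes was not tested. With slide as a block Kdr, Cnn1 and Kcnj8 still passed, with adjusted p of 0.0179, 0.0249 and 0.0292, and Egfl7 (0.0751), Cldn5 (0.0711) and Myh11 (0.135) did not.

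Of the 17 probes of the 10 genes 13 passed the background filter, and in the fit over single probes none of the 13 passed, against 759 of 22919 probes (3.31%). The pair of fibronectin probes gave nearly the same difference, 0.27 and 0.31 (SE 0.202), and followed each other closely over the arrays (r = 0.99). The pair for Sparc gave 0.20 and 0.08 (SE 0.183) with an r of 0.79. The pair for Prelp did not match: the second probe, which was above background on 9 of 12 arrays, gave 0.07 (SE 0.183) against 0.51, with an r of 0.43. Its mean level was -3.38 in exercised and -3.45 in sedentary muscle, on average 7.35 log2 units below the main probe. It was thus read near the background, where a difference may not show. That second probe lies at 135811621 to 135811680 on chromosome 1, toward the start of the transcript, and begins ttacctttacttgcagaacaacttcatcac. With the mean of both probes Prelp differed by 0.29 with an adjusted p of 0.320.

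The remaining 4 probes were not above background on enough arrays. A second decorin probe, at 96943347 to 96943406 on chromosome 10 and far upstream of the main one, was above background on 4 exercised arrays and 1 sedentary array. Its measured means were -4.05 and -5.67, and without the filter its difference of 1.62 (SE 0.481) had an adjusted p of 0.190. A fibronectin probe in the middle of the transcript, which bridges exons, was above background on 3 exercised arrays and 1 sedentary array (difference 0.70, SE 0.332); it is printed here because it reads another part of fibronectin than the pair above.
Fn1, chromosome 1, 71673888 to 71674646, minus strand: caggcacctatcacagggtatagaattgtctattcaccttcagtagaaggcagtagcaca
Another tenascin C probe was above background on 1 array of each group, with a difference of -0.51 (SE 0.410), and the last one on none.

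Several of these genes sit beside each other in the genome, in the order given by RefSeq for GRCm38.p6. Decorin lies next to lumican, which is followed by keratocan, with differences of 0.38, 0.22 and 0.91. Ecm2, asporin, osteomodulin and osteoglycin follow each other on chromosome 13, with differences of 0.40, 0.33, 0.78 and 0.39. The next measured genes beyond them, Cenpp on one side and Nol8 on the other, differed by -0.11 and 0.09, and neither passed. Prelp lies next to fibromodulin (0.92), and beyond that comes Btg2, an antiproliferative early response gene, which rose by 1.83 (SE 0.241, adjusted p of 0.00129). Of the 40 neighbour positions looked at (2 on each side of each gene), 28 were measured.

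Promoter windows (250 bases before to 50 after a start, RefSeq, GRCm38.p6) were found for 7 of the 10 genes, 9 windows in all, and none was matched for Dcn, Lum and Fn1. They were searched on both strands for TATAAA, the TATA box core, for TGANTCA, the AP-1 site, and for CAGACA, a Smad-binding sequence (N is any base). No match of one motif overlapped a match of another, but the pair of TATAAA matches in Ogn overlap each other on opposite strands. TATAAA was in 5 of the 9 windows, of 4 genes, against 13.6% of all 32851 windows of this length. CAGACA was in 4 of the 9 windows, of 3 genes, against 21.0%, and TGANTCA was in none, against 7.8%. The pair of tenascin C windows overlap, so the TATAAA match and one of the CAGACA matches there are each a single site counted in both windows. The levels of the neighbours Aspn and Ogn followed each other over the arrays (r = 0.77). The other Postn window, at chr3:54359017-54359316, held no match to any of these motifs and is not printed. Printed, with the matches to these motifs in capitals, are the parts before the start of Aspn, of Ogn and of the Postn window where TATAAA begins 26 bases before the start.
Aspn, chr13:49544193-49544442, plus strand: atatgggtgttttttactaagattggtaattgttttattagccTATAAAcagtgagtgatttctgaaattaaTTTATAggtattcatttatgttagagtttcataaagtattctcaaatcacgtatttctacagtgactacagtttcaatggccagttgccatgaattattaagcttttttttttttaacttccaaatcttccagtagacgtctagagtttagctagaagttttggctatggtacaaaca
Ogn, chr13:49607765-49608014, plus strand: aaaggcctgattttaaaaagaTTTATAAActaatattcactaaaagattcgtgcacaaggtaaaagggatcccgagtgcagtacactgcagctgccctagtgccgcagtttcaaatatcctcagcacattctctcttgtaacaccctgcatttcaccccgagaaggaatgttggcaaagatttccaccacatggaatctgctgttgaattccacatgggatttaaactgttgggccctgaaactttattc
Postn, chr3:54360857-54361106, plus strand: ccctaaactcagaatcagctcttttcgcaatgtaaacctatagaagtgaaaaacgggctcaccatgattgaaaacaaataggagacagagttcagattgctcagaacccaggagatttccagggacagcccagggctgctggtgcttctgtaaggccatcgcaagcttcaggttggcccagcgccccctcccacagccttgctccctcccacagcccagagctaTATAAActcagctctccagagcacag
In Aspn the matches begin 207 and 178 bases before the start, and in Ogn 229 and 227 bases before it. A match describes the letters and not a bound site.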

How the data were processed

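Gene expression was read in quadriceps RNA of 12 mice on one-colour arrays. The authors deposited linear intensity per spot, from Agilent Feature Extraction 10.5.1.1 per the file headers, while the submitters' processing notes name 9.1. The processed signal was already background-subtracted, and no scaling between arrays is recorded in the headers. The deposited table of values holds the same intensity, and was used as an alternative.

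From these values, marked outlier spots (1109 in total) and control spots were left out, the log2 of the deposited signal was taken, each array's 75th percentile was subtracted and spots of a probe were averaged. Probes well above background on at least 6 of 12 arrays were kept (22919 of 41174), named through current gene names where the accession allowed (26876), and each gene was represented by its brightest probe. Exercised was compared with sedentary in limma 3.58.1 (R 4.3.3) without a block, with Benjamini-Hochberg adjustment over all genes and a threshold of 0.05; the fit was tested on simulated data. The labels give separate animals. The genes and lists were chosen with earlier results of these data known. Probes described as biglycan or periostin but listed under a transcript identifier in the gene column were not counted among the 17. All 10 genes and the probes under their symbol are covered, with every gene of a list that passed (otherwise those with the 2 smallest p values, at least) and the 3 genes most alike. One list gene that this rule names is not reported here. Other list genes, genome neighbours and motifs were chosen after their values were seen. Replicate numbers shared by both groups gave correlations of 0.15, -0.19, 0.12 and 0.28. The best match was the mouse of the same number for s1m1 and s2m5, and another mouse for s1m5 and s2m4. So few correlations cannot decide whether the numbers pair the mice, and the main fit did not pair them. Alternatives concerned scaling, background, filters, probes, variance, slide, title set, pairing, threshold and each array left out.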

Additional observations from a re-analysis of the deposited data

Results flagged for a closer look

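Of the 26 groups of 6 arrays examined, one per probe and group, 2 held an array set apart from the others by more than Dixon's critical share of the group's range. Chance marks about 1 in 20 such groups. The log2 level of Sparc was 4.66 on exercised s2m1, where the other exercised arrays lay at 5.45 or above. The log2 level of Tnc was -2.98 on sedentary s2m2, where the other sedentary arrays lay at -1.83 or above. Both arrays are the lowest of their group in all 10 genes.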

How the results depend on the processing

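Over 320 combinations of a gene and an alternative, 310 kept the direction and the side of the threshold, 8 passed it and 2 turned direction. The 2 that turned were Fn1 and Postn within slide 3 (-0.043 in both). Prelp passed with median scaling (0.52), with probes above background on all arrays and with an intensity trend and robust variance (0.51 in both), and without both low arrays (0.51, an alternative chosen after seeing the data). Dcn passed with title set as a block (0.42). Members called were 1 with median scaling, with probes above background on all arrays, with trend and robust variance, with title set as a block and without both low arrays, and 2 at an adjusted p of 0.10. Leaving out each array in turn gave 0 to 2, with the 2 without sedentary s1m1 (Prelp and Ogn). Over these fits the difference ranged from 0.43 to 0.59 for Prelp, from 0.30 to 0.49 for Ogn and from 0.30 to 0.43 for Dcn.

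Genes called, 601 over all arrays, were 316 with no filter, 344 with slide as a block, 1009 at an adjusted p of 0.10, 357 without both low arrays, and 0, 8 and 0 within slides 1, 2 and 3 (limma, unadjusted p below 0.05 in 1014, 973 and 2152). Probes called, 759 at first, were 394, 443, 1281, 437, and 0, 10 and 0 in the same order. The replicate block, over the arrays whose numbers occur in both groups, gave 29 genes and 33 probes. It uses fewer arrays, and whether the numbers pair the mice is not known. Under normexp background correction 0 genes and 0 probes were called in limma (107 genes at an unadjusted p below 0.05). On 4 arrays, exercised s2m1 and s2m4 and sedentary s2m4 and s2m5, 5 to 16 spots lay more than 100 units below a locally uneven background, and there the gap between the 75th and the 10th percentile was 0.0252 to 0.227 on the log2 scale, against 1.94 to 2.23 on the others. With the array's median background at spots marked uneven, an alternative chosen after seeing the data, 479 genes (422 of them among the 601) and 584 probes were called and none of the 10 genes; Prelp was 0.50 and Dcn 0.41. Dim probes, and the 6 arrays per group, limit the precision.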
